A study of Homo sapiens with 2 samples.

Results

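Enzymes that write or erase methyl groups on histones were examined in MOLM-13 cells, a human acute myeloid leukemia (AML) line. The set held 46 genes, taken by gene symbol from the 50868 genes of the deposited expression table. They were 24 methyltransferase and PRC2 genes that act on histone lysines, 3 other SET domain genes, 16 demethylases and 3 arginine methyltransferases. All 46 were found and had at least 10 reads over both libraries, as did 15384 genes in all.

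RNA-seq was performed on 1 library from MOLM-13 cells with the genotype Vector (OE-Control) and on 1 library from MOLM-13 cells labelled as over-expressing UNC5B. Both cultures were grown in medium with fetal bovine serum. In the study's methods UNC5B was driven by a CMV promoter on a lentivirus that also carried mCherry, and the cells were selected with puromycin. Whether the cells were a pool or a clone was not stated. The libraries held 13715566 reads (Vector) and 15637137 reads (OE-UNC5B) on genes. UNC5B itself had 0 reads in each library, which allows a level of up to 0.222 CPM (counts per 1e6 reads after scaling) in Vector and 0.189 CPM in the other library, counted at 3 reads. The overexpression was therefore not visible, and the second library is named here only by its label. With 1 library per group there was no replicate check and no test of the conditions. Intervals in the text are 95% exact intervals from the reads and address counting error only. Reads after PCR are not independent molecules, so these intervals may be too narrow even for that error. Of the 8 genes taken as markers of these cells, all had reads in both libraries, from 247 for MEIS1 to 51742 for LYZ in Vector. LYZ (3835 CPM in Vector, 1491 CPM in the other library), SPI1 (239 and 203 CPM) and CEBPA (536 and 480 CPM) were lower under the OE-UNC5B label. FLT3 (301 and 402 CPM), PTPRC (118 and 195 CPM), HOXA9 (59.3 and 82.0 CPM), MEIS1 (18.3 and 34.1 CPM) and CD33 (132 and 145 CPM) were higher. Markers of HEK293, fibroblast, endothelial, T, B and erythroid cells summed to 9.12 CPM and 8.62 CPM, with 11 of 21 at 0 reads in both libraries. CD3D gave 67 of the 123 reads of these markers in Vector and 102 of 137 in the other library, and the defining T cell gene CD3E had 1 read and 0 reads. The part of these other cells in the results was not tested, and in bulk RNA fewer cells of a type and less RNA per cell cannot be told apart.

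Most histone lysine methylation is written by SET domain enzymes, and arginine methylation by arginine methyltransferases, and both take the methyl group from S-adenosylmethionine. It is removed by FAD-dependent enzymes of the KDM1 type and by JmjC enzymes, which need iron, oxygen and 2-oxoglutarate. Marks on H3K4 lie at active promoters and enhancers, marks on H3K36 lie over transcribed genes, and marks on H3K9, H3K27 and H4K20 are linked to silent chromatin. MOLM-13 carries a KMT2A::MLLT3 fusion, which keeps the DNA-binding part of KMT2A, an H3K4 methyltransferase, and loses its SET domain.

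Across the 46 genes, 8 were at least 1.5-fold above their Vector level in the library labelled OE-UNC5B, and 2 were at least 1.5-fold below it. The higher genes were KDM7A, KMT2C, SETD5, KMT2D, SETD7, KDM6B, ASH1L and KDM5B, and the lower genes were PRMT1 and KMT5C. Among all 15384 tested genes, 12.9% were higher and 12.5% were lower by this measure. The enzymes stood at 17.4% higher, which is near that background, and at 4.35% lower. At 2-fold, 1 of the 46 was higher, KDM7A, against 5.15% of all tested genes. The log2 fold changes of the 46 had a median of 0.23, which was also 0.23 without KDM7A, against -0.01 for all tested genes, and 34 of 46 were above that median.

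The enzymes were read more deeply than most genes, with a median of 2484 reads over both libraries against 593. Among the 8756 tested genes with at least 400 reads, 7.83% were higher and 7.01% were lower at 1.5-fold. Of the 46 enzymes 45 had that depth, and 8 of these were higher and 2 lower. The interval from the reads lay wholly above 0 for 30 of the 46 and wholly below 0 for 8. In all tested genes these shares were 25.2% and 26.2%, and in genes with at least 400 reads 33.7% and 35.2%. Such an interval leaves out the variation between cultures.

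**Figure D1:**
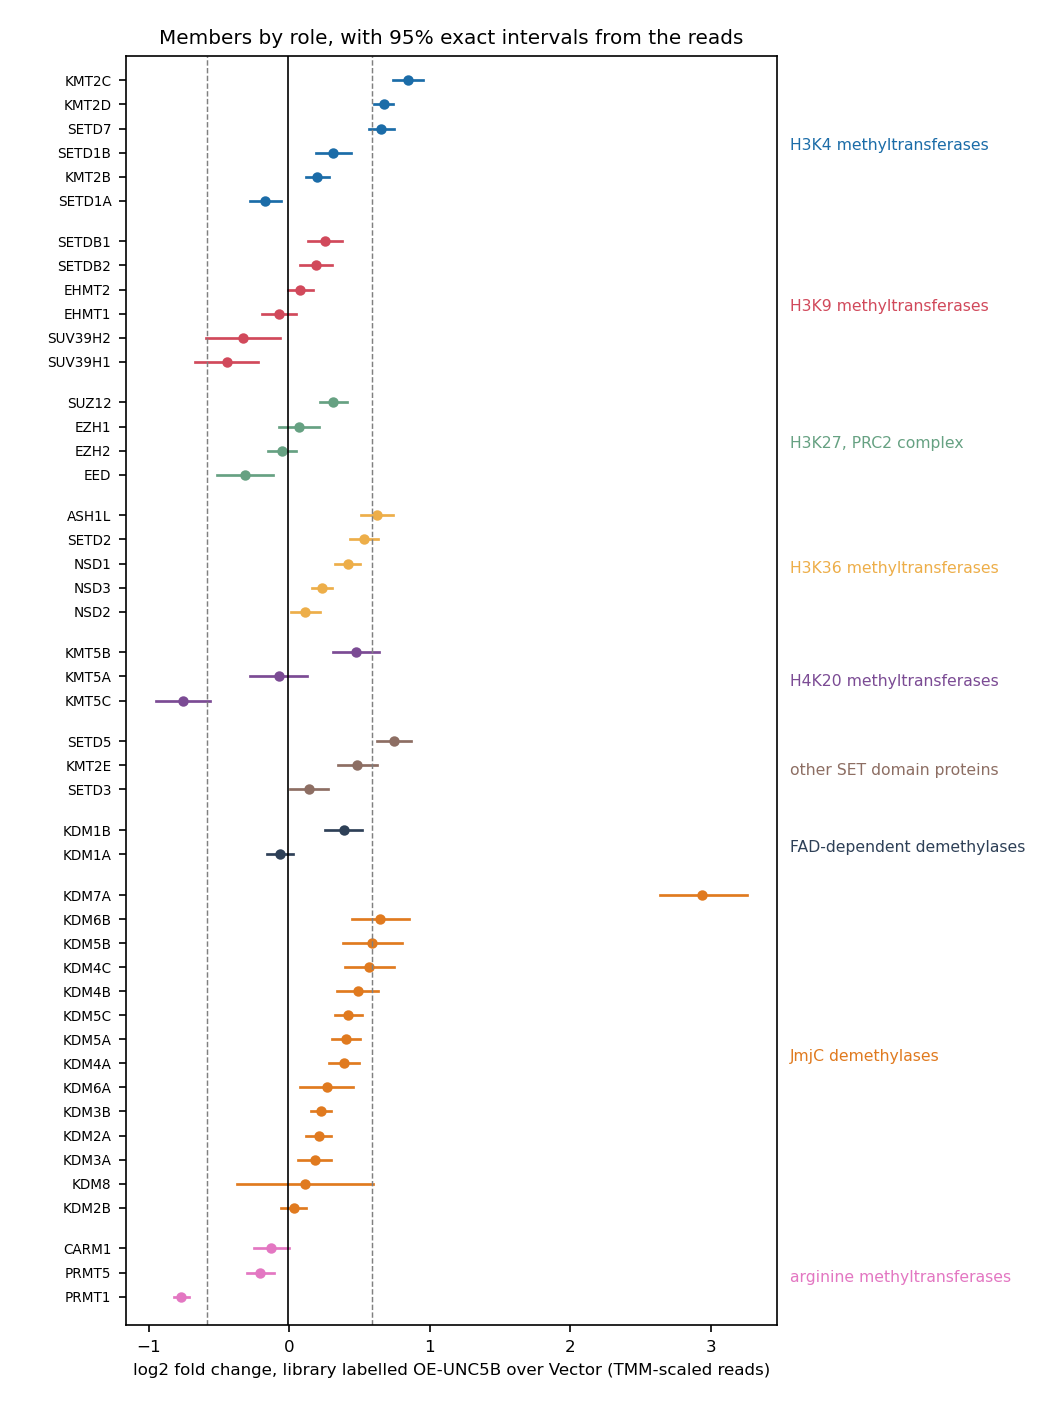
Log2 fold change of each of the 46 genes, library labelled OE-UNC5B over Vector, on TMM-scaled reads. Points are values of 1 library per group, bars are 95% exact intervals from the reads, the solid line is the median of all tested genes (-0.01) and the dashed lines mark 1.5-fold. KDM7A stands far to the right at 2.93, the other JmjC demethylases lie between 0.03 and 0.65, and PRMT1 and KMT5C lie lowest.

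Levels were compared between genes as FPKM, a count divided by gene length and by library size. They ran from 0.428 for KDM7A to 59.0 for PRMT1, both in Vector. PRMT1 was the most abundant of the 46 in both libraries, at 59.0 FPKM in Vector and 35.8 FPKM in the library labelled OE-UNC5B. KDM8 was the least abundant in the library labelled OE-UNC5B, at 0.505 FPKM. KMT2B, SETD1A, EHMT2, KDM4A, EZH2, KDM3B and KDM1A stood between 12.6 and 16.7 FPKM in Vector. The length behind the FPKM was 0.379 to 3.59 times that of the merged GENCODE exons, and for 26 of the 46 it was off by over 1.5 times, so the order of levels depends on the length used. Per merged exon length PRMT1 stayed at rank 1 in Vector, while KDM1A moved from rank 2 to rank 26.

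**Figure D2:**
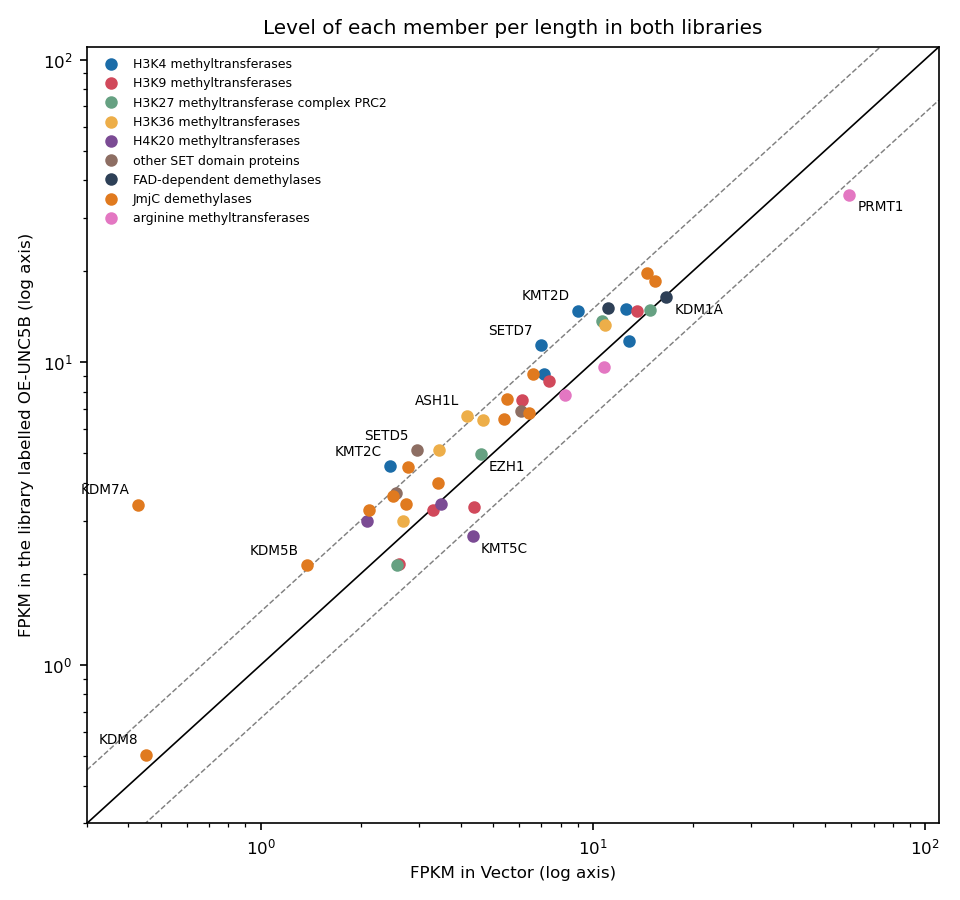
FPKM of each of the 46 genes in Vector (horizontal) and in the library labelled OE-UNC5B (vertical), both on log axes, coloured by role. The solid line marks equal FPKM and the dashed lines 1.5-fold. Most points lie near the solid line, KDM7A lies far above it (0.428 against 3.39 FPKM) and PRMT1, at the upper right, lies below it.

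Of the 6 H3K4 methyltransferases, 5 had log2 fold changes above 0, all but SETD1A. Over the 6 genes the median log2 fold change was 0.48, and 3 were at least 1.5-fold higher, against 12.9% of all tested genes. With the length trend subtracted KMT2C (0.59) was past 1.5-fold, and KMT2D (0.41) and SETD7 (0.52) were not. With the GC trend subtracted as well, 0 of the 6 were. KMT2C, which methylates H3K4 at enhancers, had 1040 reads in Vector against 2197 in the library labelled OE-UNC5B, a log2 fold change of 0.84 (interval 0.74 to 0.95). In GRCh38, KMT2C occupies bases 152134922 to 152436005 of chromosome 7 (minus strand), with 59 exons in the main transcript. Parts of KMT2C have near-identical copies elsewhere in the genome, so its reads are uncertain. BAGE2, which carries such a copy, had 7 and 10 reads. KMT2D, its paralogue at enhancers, had 2769 reads in Vector against 5193 in the other library, a log2 fold change of 0.67 (0.60 to 0.74). KMT2D had more reads than KMT2C by 2.66 times in Vector and by 2.36 times in the other library. The ratio of these ratios was 0.888 (0.813 to 0.969) on reads as counted. The length behind the FPKM was 31.0 kb for KMT2C and 22.4 kb for KMT2D, while their main transcripts have 16860 and 20635 nt. Exonic GC content was 39.4% and 57.5%. With the trends on FPKM length and GC content subtracted the order turned, at 0.48 for KMT2C and 0.52 for KMT2D.

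SETD7, which adds 1 methyl group to H3K4 and to other proteins, had 1583 reads in Vector against 2939 in the library labelled OE-UNC5B, a log2 fold change of 0.66 (0.57 to 0.75). KMT2B, the promoter enzyme most like KMT2A, had 1976 and 2675 reads, a log2 fold change of 0.20 (0.12 to 0.29). SETD1A and SETD1B are the catalytic subunits of the complexes that place most H3K4 trimethylation. SETD1A had 1263 reads in Vector against 1323 in the other library, a log2 fold change of -0.17 (-0.28 to -0.06). SETD1B had 885 and 1296 reads, a log2 fold change of 0.31 (0.19 to 0.44). Within each library SETD1B reads were 0.701 times (Vector) and 0.98 times (OE-UNC5B) those of SETD1A, a change of 1.4 times (1.24 to 1.57). With length and GC trends subtracted the change was 1.32 times.

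Of the H3K36 methyltransferases, all 5 had log2 fold changes above 0 and 1 passed 1.5-fold, against 12.9% of all tested genes. Their median log2 fold change was 0.42. With the trend on gene length subtracted, NSD2 turned to -0.14 and NSD3 stood at 0.01, and with the trend on exonic GC content subtracted as well they stood at -0.20 and -0.10. ASH1L, which acts on H3K36 at developmental genes, had 995 reads in Vector against 1806 in the other library, a log2 fold change of 0.62 (0.51 to 0.74), or 0.48 with the length trend subtracted. SETD2, the enzyme for H3K36 trimethylation, had 1303 and 2216 reads, a log2 fold change of 0.53 (0.43 to 0.63). The NSD enzymes place the second methyl group on H3K36. NSD1 had 1696 reads in Vector against 2668 in the other library (log2 fold change 0.42), NSD3 had 3021 and 4183 reads (0.23), and NSD2 had 1380 and 1758 reads (0.11, interval 0.01 to 0.22). NSD2 reads were 0.814 times those of NSD1 in Vector and 0.659 times in the other library, so this ratio changed by a factor of 0.81 (0.737 to 0.89). The ratio of NSD3 to NSD1 changed by a factor of 0.88 (0.815 to 0.951).

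Of the SET domain proteins KMT2E, SETD5 and SETD3, 1 of 3 was at least 1.5-fold higher, SETD5, against 12.9% of all tested genes. With the length trend subtracted 0 of 3 were, against 12.8%. The log2 fold changes of the 3 lay between 0.14 and 0.74. SETD5 had 820 reads in Vector against 1618 in the library labelled OE-UNC5B, a log2 fold change of 0.74 (0.62 to 0.87), or 0.52 with the length trend subtracted. KMT2E, which binds methylated H3K4 and has no established methyltransferase activity, had 713 and 1176 reads, a log2 fold change of 0.49 (0.35 to 0.62). SETD3, known as the histidine methyltransferase of actin, had 771 and 1002 reads, a log2 fold change of 0.14 (0.00 to 0.28), or 0.00 with the trend on genomic span subtracted.

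The H3K9 methyltransferases were split, and 0 of 6 passed 1.5-fold in either direction. Of all tested genes 12.9% were higher and 12.5% lower. The median log2 fold change of the 6 was 0.00. SUV39H1 and SUV39H2, which trimethylate H3K9 in heterochromatin, were both lower. SUV39H1 had 362 reads in Vector against 313 in the library labelled OE-UNC5B, a log2 fold change of -0.45 (-0.67 to -0.22). SUV39H2 had 249 and 234 reads, a log2 fold change of -0.33 (-0.59 to -0.06). The ratio of SUV39H1 to SUV39H2 moved by a factor of 0.92, with an interval (0.723 to 1.17) that holds equality. SETDB2, an enzyme related to SETDB1, had 1079 and 1448 reads (0.19, interval 0.07 to 0.30). SETDB1, which silences repeat elements, had 989 and 1389 reads, a log2 fold change of 0.25 (0.13 to 0.37). Of the SETDB1 exons, 12.9% of bases overlap exons of CERS2 on the opposite strand, and CERS2 had 1428 reads in Vector against 3085 in the other library. The use of strand in the counting was not stated, so the reads of these genes may not be separable. EHMT1 and EHMT2, which form a dimer that mono- and dimethylates H3K9, had log2 fold changes of -0.07 (-0.19 to 0.05) and 0.08 (-0.01 to 0.17), both with intervals that hold 0.

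Polycomb repressive complex 2 (PRC2) methylates H3K27. Of its 4 core genes 0 passed 1.5-fold, while 12.9% of all tested genes were higher and 12.5% lower. EZH2, the main catalytic subunit of PRC2 in dividing cells, had 1628 reads in Vector against 1851 in the library labelled OE-UNC5B, a log2 fold change of -0.05 (-0.15 to 0.05). EZH1, the other catalytic subunit, had 720 and 889 reads, a log2 fold change of 0.07 (-0.08 to 0.21). In FPKM, the level of EZH2 was 3.24 times that of EZH1 in Vector and 2.99 times in the other library, but per merged GENCODE exon length it was 1.47 and 1.35 times. The change of this ratio, 0.921 (0.816 to 1.04), had an interval that holds equality. The other core subunits went in opposite directions. EED, which binds trimethylated H3K27, had 419 and 397 reads, a log2 fold change of -0.31 (-0.52 to -0.11). SUZ12, the scaffold of the complex, had 1452 and 2125 reads, a log2 fold change of 0.31 (0.22 to 0.41). SUZ12 shares sequence with the pseudogene SUZ12P1, which had 729 and 848 reads, so its value is uncertain.

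The 3 H4K20 methyltransferases spread from -0.75 to 0.47 in log2 fold change. KMT5C, which trimethylates H4K20 in heterochromatin, had 530 reads in Vector against 370 in the library labelled OE-UNC5B, 1.69-fold lower (log2 fold change -0.75, interval -0.95 to -0.56). KMT5B, its paralogue with mainly dimethylating activity, had 496 and 811 reads, a log2 fold change of 0.47 (0.31 to 0.64). KMT5B reads were thus 0.936 times those of KMT5C in Vector and exceeded them in the other library, a change of 2.34 times (1.96 to 2.8) on reads as counted and of 1.88 times with length and GC trends subtracted. KMT5A, which adds the first methyl group, had 382 and 427 reads, a log2 fold change of -0.08 (-0.28 to 0.13). KMT5C occupies bases 55339853 to 55348120 of chromosome 19 (plus strand), with 9 exons in the main transcript.

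The JmjC demethylases had log2 fold changes above 0 in 14 of 14 genes, with a median of 0.40. Of these genes 3 passed 1.5-fold, against 12.9% of all tested genes and 15.8% of genes with an FPKM length of at least 12.2 kb. For 12 of 14 the interval from the reads lay above 0, against 25.2% of all tested genes and 33.7% of those with at least 400 reads. With the length trend subtracted KDM2A (-0.05), KDM2B (-0.23) and KDM3A (-0.09) were below 0. KDM7A, which removes methyl groups from H3K9 and H3K27, differed most of the 46. It had 96 reads in Vector against 867 in the other library, 7.63-fold higher (log2 fold change 2.93, interval 2.63 to 3.26), and ranked at 56 among all 15384 tested genes. On log2 FPKM with 1 added, which shrinks low levels, KDM7A stood at 1.62. KDM7A occupies bases 140084746 to 140177035 of chromosome 7 (minus strand), and 20 exons make up a main transcript of 9220 nt. The divergent transcript KDM7A-DT, on the opposite strand, had 12 reads in Vector against 48 in the other library (log2 fold change 1.72, interval 0.83 to 2.81). The nearest tested protein-coding genes were PARP12, with 89 and 178 reads (log2 fold change 0.76, interval 0.39 to 1.15), and SLC37A3, with 21 and 23 reads (-0.11, interval -1.02 to 0.82). The intervals of PARP12 and SLC37A3 did not reach that of KDM7A, while that of KDM7A-DT did. The 10 enzymes past 1.5-fold had 20 such neighbours, of which 8 had the sign of their enzyme and 12 the opposite sign, with intervals that leave out 0 for 5 and 8 of these. TMEM238 stood at -1.35 (-2.36 to -0.45) next to KMT5C, and NAA38 at -0.75 (-0.94 to -0.56) next to KDM6B, which was higher. KDM5B lay between PPP1R12B, at 0.53 (0.39 to 0.67), and RABIF, at -0.29 (-0.54 to -0.03).

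KDM6A, on the X chromosome, and KDM6B also demethylate H3K27. KDM6B had 307 reads in Vector against 567 in the library labelled OE-UNC5B, a log2 fold change of 0.65 (0.45 to 0.85). KDM6A had 394 and 558 reads, a log2 fold change of 0.27 (0.08 to 0.46). KDM6B reads were 0.779 times those of KDM6A in Vector and slightly exceeded them in the other library, a change of 1.3 times (1.07 to 1.58).

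The KDM5 enzymes remove H3K4 trimethylation, and KDM5A, KDM5B and KDM5C had log2 fold changes between 0.40 and 0.59. KDM5B had 295 reads in Vector against 523 in the other library, a log2 fold change of 0.59 (0.38 to 0.80) that lay just past 1.5-fold, and was 0.47 with the length trend subtracted. KDM5A had 1313 and 2043 reads (0.40, interval 0.30 to 0.50), and KDM5C had 1420 and 2238 reads (0.42, interval 0.32 to 0.52). The ratio of KDM5C to KDM5A moved by a factor of 1.01 (0.919 to 1.12) and that of KDM5A to KDM5B by 0.878 (0.746 to 1.03), both with intervals that hold equality. Among the KDM4 enzymes, which act on H3K9 and H3K36, the log2 fold changes were 0.57 for KDM4C, 0.49 for KDM4B and 0.39 for KDM4A. KDM4A shares 40.2% of its exonic bases with another protein-coding gene on the same strand in GENCODE, so its count is uncertain. The lowest of the JmjC genes were KDM2B (0.03, interval -0.06 to 0.12) and KDM8 (66 and 84 reads, 0.11, interval -0.37 to 0.60). Both intervals hold 0, and that of KDM8 is wide because its reads are few. KDM2A, KDM3A and KDM3B lay between 0.18 and 0.23.

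Of the FAD-dependent demethylases, KDM1A (LSD1), which acts on H3K4 with the CoREST complex, had 1831 reads in Vector against 2061 in the library labelled OE-UNC5B, a log2 fold change of -0.07 (-0.16 to 0.03). KDM1B, which demethylates H3K4 without CoREST, had 770 and 1186 reads, a log2 fold change of 0.39 (0.25 to 0.52).

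The arginine methyltransferases PRMT1, PRMT5 and CARM1 had log2 fold changes below 0, and 1 of 3 passed 1.5-fold, against 12.5% of all tested genes. PRMT1, which makes most asymmetric dimethylarginine, had 6765 reads in Vector against 4681 in the other library, 1.7-fold lower (log2 fold change -0.77, interval -0.82 to -0.71). PRMT1 occupies bases 49675786 to 49689029 of chromosome 19 (plus strand), with 11 exons in the main transcript. PRMT5, the main enzyme for symmetric dimethylarginine, had 1745 and 1781 reads, a log2 fold change of -0.21 (-0.30 to -0.11). CARM1, a coactivator that methylates H3 arginines, had 1062 and 1146 reads, a log2 fold change of -0.13 (-0.25 to -0.00), and 20.2% of its exonic bases overlap YIPF2 on the opposite strand. CARM1 stood at -0.11 with the length trend subtracted and at 0.02 with the GC trend subtracted as well. Relative to PRMT1, PRMT5 was higher under the OE-UNC5B label by 1.48 times (1.37 to 1.59). The reads of the 3 genes together stood at 709 CPM in Vector and 479 CPM in the other library. PRMT1 alone gave 501 and 294 CPM of these, and PRMT5 and CARM1 together gave 208 and 184 CPM. Of other arginine methyltransferases, outside the 46, PRMT3 stood at 0.16 (0.00 to 0.32). The intervals of the rest hold 0, with PRMT2 at 0.09 (-0.11 to 0.28) and PRMT9 at 0.05 (-0.22 to 0.31). PRMT7 stood at -0.05 (-0.20 to 0.09) and PRMT6 at -0.09 (-0.30 to 0.13).

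The promoters of the 2 highest log2 fold changes among the 46 (KDM7A and KMT2C) and of the 2 lowest (PRMT1 and KMT5C) are shown so that the ends of the range can be set side by side. Sequences are the 250 bases before the gene start in RefSeq (GRCh38.p14), 5′ to 3′ on the strand of the gene, at chr7:140176984-140177233 (minus) for KDM7A, chr7:152436004-152436253 (minus) for KMT2C, chr19:49677021-49677270 (plus) for PRMT1 and chr19:55339626-55339875 (plus) for KMT5C. Capitals mark matches, on either strand, to the GC-box GGGCGG, to CCAAT and to the NRF1 motif. The RefSeq starts differ from those of the deposited expression table, which gave the gene coordinates above. The windows of all 4 genes reach into the gene at those coordinates, that of PRMT1 wholly.
KDM7A: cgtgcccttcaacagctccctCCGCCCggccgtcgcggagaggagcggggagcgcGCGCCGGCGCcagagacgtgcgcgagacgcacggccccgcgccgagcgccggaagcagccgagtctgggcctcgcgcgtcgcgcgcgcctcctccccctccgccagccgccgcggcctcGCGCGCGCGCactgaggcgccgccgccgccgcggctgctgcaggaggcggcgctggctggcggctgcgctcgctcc
KMT2C: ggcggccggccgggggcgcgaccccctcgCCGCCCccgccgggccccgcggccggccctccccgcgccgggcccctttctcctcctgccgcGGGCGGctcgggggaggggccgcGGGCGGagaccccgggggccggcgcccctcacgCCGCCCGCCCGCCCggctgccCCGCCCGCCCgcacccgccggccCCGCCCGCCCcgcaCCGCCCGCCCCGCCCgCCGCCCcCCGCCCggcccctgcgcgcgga
PRMT1: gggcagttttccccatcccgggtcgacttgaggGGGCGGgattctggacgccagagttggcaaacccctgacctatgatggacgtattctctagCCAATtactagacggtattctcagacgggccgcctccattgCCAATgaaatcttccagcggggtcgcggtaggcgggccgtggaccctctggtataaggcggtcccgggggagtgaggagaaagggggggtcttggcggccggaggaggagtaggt
KMT5C: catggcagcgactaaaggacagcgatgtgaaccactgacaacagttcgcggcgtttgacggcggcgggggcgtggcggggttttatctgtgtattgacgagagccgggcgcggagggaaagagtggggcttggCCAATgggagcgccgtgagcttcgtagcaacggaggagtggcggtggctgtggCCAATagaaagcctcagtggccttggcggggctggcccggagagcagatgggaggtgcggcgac

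G and C made up 81.6% of the KDM7A window and 92.0% of the KMT2C window, against 61.2% for PRMT1 and 64.0% for KMT5C. The KDM7A window holds 50 CpG, the KMT2C window 48, the KMT5C window 23 and the PRMT1 window 17. CCAAT was found in the windows of PRMT1 and KMT5C, and not in those of KDM7A and KMT2C. These 4 do not stand for the rest. Over all 8 genes at least 1.5-fold higher, G and C ran from 64.0% (SETD7 and KDM5B, as in KMT5C) to 92.0%, and SETD5 also held CCAAT. Promoters were found for 44 of the 46 genes, all but SETD1B and NSD3. GC-box was present in 32 of 44 windows (72.7%), against 42.6% of all 35116 windows of this length. NRF1 was present in 10 of 44 (22.7%) against 7.16%, CCAAT in 17 (38.6%) against 32.0%, and the E-box CACGTG in 7 (15.9%) against 6.35%. The ETS motif CCGGAAGT was in 0 of 44, against 3.42% of all windows, and the C/EBP-ATF response element TGATGNAA also in 0, against 3.14%. The median G and C content was 67% in the 44 windows and 58.0% in all windows, and motifs made of G and C move with this content. A match is a run of letters and not a measured binding site.

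Gene length was considered next, because long genes tended to be higher under the OE-UNC5B label. Length was taken from the ratio of the deposited counts to the deposited FPKM. Tested genes were divided into 5 equal parts by length. The median log2 fold change of all tested genes was -0.08 and -0.11 in the shortest parts, -0.03 and 0.02 in the next, and 0.14 in the longest part, which held genes of at least 12.2 kb. Over all tested genes Spearman's rho between length and log2 fold change was 0.146 (15384 genes from the same pair of libraries), and over genes with at least 400 reads it was 0.317. Histone methylation enzymes are long, with a median length of 11.8 kb against 6.73 kb, and 22 of 46 were in the longest part. Over the 46 genes rho was 0.48 with this length and 0.507 with the genomic span from the annotation. Genes are not independent replicates, and all points share the same libraries.

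Of the 22 enzymes in the longest part, 19 were above the median of all genes of that part, and their own median was 0.48. Of these 22, 7 were at least 1.5-fold higher, where 15.8% of all genes of that part were. In the next longest part 10 of 15 enzymes were above the median of that part, 0 of 15 were at least 1.5-fold higher, against 10.3% of all genes of that part, and 2 of 15 were lower, PRMT1 and KMT5C, against 9.55%. In the middle part 2 of 8 enzymes were above, KDM6B and KDM4A. The enzymes shorter than 12.2 kb thus held 1 of the 8 genes at least 1.5-fold higher, KDM6B.

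When the running trend on length was subtracted, the median of the 46 enzymes was 0.17, against -0.01 for all tested genes, and 30 of 46 were above the median of all. At least 1.5-fold higher were then 3 of the 46, KDM7A (2.80), KDM6B (0.65) and KMT2C (0.59), against 12.8% of all tested genes. At least 1.5-fold lower were 2 of the 46, PRMT1 (-0.78) and KMT5C (-0.78), against 11.8%. SETD5, KMT2D, SETD7, ASH1L and KDM5B then had values between 0.41 and 0.52, under the threshold of 0.58. EHMT1, of 22.7 kb by the FPKM, stood at -0.34 and NSD2, of 37.5 kb, at -0.14. Their main transcripts have 5095 and 7560 nt. With the trend on the G and C content of the exons subtracted as well, the median of the 46 was 0.15, 31 of 46 were above the median of all, and KMT2C stood at 0.48. By role, the medians with the length trend subtracted were 0.34 for H3K4 methyltransferases, 0.28 for JmjC demethylases, 0.16 for H3K36 methyltransferases, -0.00 for PRC2 and -0.26 for arginine methyltransferases.

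**Figure D3:**
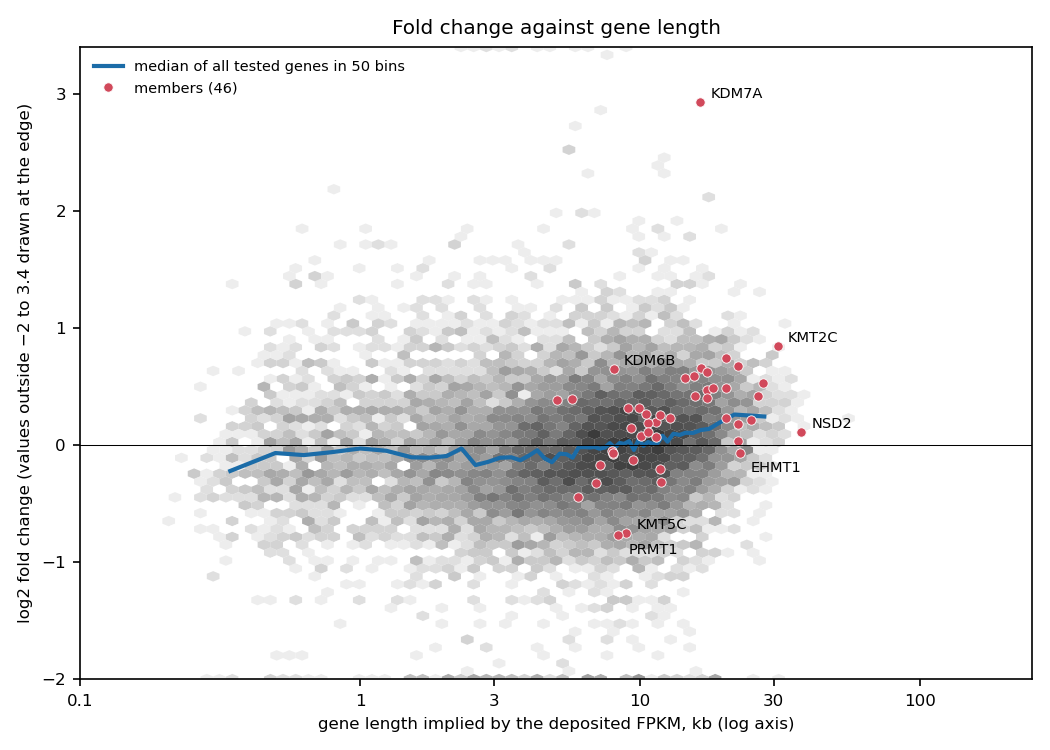
Log2 fold change (vertical) against the gene length implied by the deposited FPKM in kb (horizontal, log axis). Grey hexagons are all 15384 tested genes, darker for more genes, the line is their median in 50 equal bins of length, and red points are the 46 enzymes. The line rises to the right, and most enzymes of over 12.2 kb lie on or above it.

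The complexes around these enzymes were described from lists of 66 partner genes and related enzymes, of which 64 were tested. Of the 64, 5 were at least 1.5-fold higher and 4 lower, and their median log2 fold change was 0.00. Over all tested genes the shares were 12.9% and 12.5%. With the length trend subtracted 4 of the 64 were higher and 1 lower, since PHF21A (0.40), COPRS (-0.49), RIOX1 (-0.53) and RCOR2 (-0.55) were under the threshold. With the GC trend subtracted as well, ATF7IP (0.565) and JMJD1C (0.56) were too. The median length of the 64 was 9.21 kb. Of the 11 COMPASS subunits, which assemble with the H3K4 methyltransferases, and of the 7 further PRC2 subunits, 0 passed 1.5-fold, with medians of -0.02 and 0.02. Of the 10 KDM1A-CoREST subunits, GSE1 (704 reads in Vector and 1531 in the other library, log2 fold change 0.88) and PHF21A (410 and 725 reads, 0.59, just past the threshold) were higher. RCOR2 had 31 and 23 reads (-0.66), with an interval (-1.51 to 0.16) that holds 0. Among 7 partners and readers of H3K9 methylation, ATF7IP, which stabilises SETDB1, had 462 and 1062 reads (0.96, interval 0.81 to 1.13).

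Of the 4 partners of PRMT5, COPRS, which recruits PRMT5 to histones, had 383 and 299 reads (-0.59, interval -0.82 to -0.37). Of 14 other histone methyltransferases, SETMAR had 138 and 88 reads (-0.88, interval -1.29 to -0.49). Of 8 other genes listed as histone demethylases, 6 were tested, with a median of 0.31. Whether each of these acts on histones was not assessed. JMJD1C, a JmjC protein of the KDM3 family, had 2194 and 4570 reads (0.82, interval 0.75 to 0.90), RIOX2 had 297 and 566 reads (0.69), and RIOX1 had 535 and 409 reads (-0.62). Of the 5 genes that supply and recycle the methyl donor, 0 passed 1.5-fold, with log2 fold changes from -0.13 to 0.35. Of all tested genes 12.9% were higher and 12.5% lower.

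**Figure D4:**
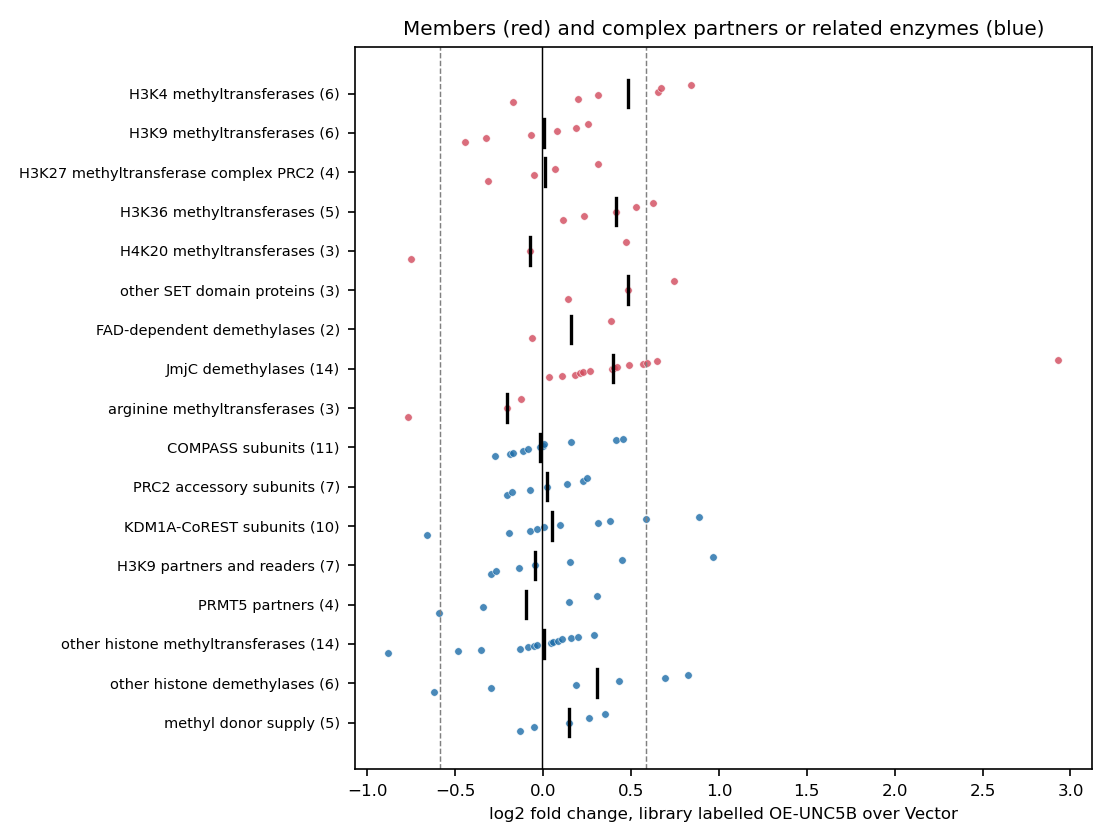
Log2 fold change of each gene of the role groups of the 46 enzymes (red) and of the lists of partners and related enzymes (blue), with the number of tested genes in brackets. Short black bars are medians of a list, the solid line is the median of all tested genes (-0.01) and the dashed lines mark 1.5-fold. The medians of H3K4 methyltransferases (0.48) and JmjC demethylases (0.40) lie to the right of those of COMPASS (-0.02) and KDM1A-CoREST subunits (0.05). With the length trend subtracted these medians were 0.34, 0.28, -0.01 and -0.02.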

How the data were processed

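Gene-level RNA-seq values of MOLM-13 cells were used for both libraries. The deposited table gives unnormalised read counts. The authors also deposited FPKM, which are those counts per kilobase of gene and per 1e6 reads on genes. The submitters' processing notes name bcl2fastq 2.19, HISAT2 2.0.4, StringTie 1.3.0 and GRCh38. The annotation and the use of strand are not given in the sources used here.

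TMM scaling used edgeR 4.0.16 under R 4.3.3. A gene entered the tested set when its summed reads reached 10, and 0.5 reads were added for log2 fold changes. Intervals are 95% Clopper-Pearson intervals of the read shares (scipy 1.17.1), and intervals of ratios between genes are exact conditional ones. With 1 library per group, edgeR's quasi-likelihood test and any other test of the conditions could not be fitted. The length trend was the median log2 fold change in 50 bins of length, subtracted and re-centred. Annotation came from GENCODE 44 (98.8% of tested genes matched). The FPKM lengths had a median of 2.56 times that of the main transcript over the 46 genes, and differed from the merged exons of GENCODE 44.

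Named are all enzymes past 1.5-fold, the extremes of each role, the paralogue families and the partner genes past 1.5-fold. Neighbours, copies, motifs, the other enzymes named, 5 further gene pairs (of SETD1, EHMT, PRMT and KMT5 genes) and a minimum of 400 reads were chosen after values were seen. The members and lists were chosen with earlier results of these data known. The scaling, the fold changes with their intervals and the subtraction of the length trend were run on simulated counts with counting error only. The trends on GC content and span, the ratios between genes, the neighbours and the motifs were not.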

Additional observations from a re-analysis of the deposited data

How the results depend on the processing

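Leaving out a replicate was not possible. No paired analysis was possible because neither group had a further library. The 46 enzymes held 8 genes at least 1.5-fold higher, 2 lower and a median of 0.23. The counts stayed within 1.5 times of this with library totals, DESeq2 1.42.0 size factors, FPKM with 0.1 added, 2 reads added, no filter, at least 50 or 400 reads, protein-coding genes alone and an interval required on the same side of 0. The median stayed between 0.15 and 0.28 under all alternatives that gave it.

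With 1 added to the FPKM, 5 were higher and 1 lower. With the length trend subtracted 3 were higher, with length and GC trends 2, and with a trend on genomic span 5, with 2 lower each time. By construction a 2-fold threshold gave 1 higher and 0 lower, and a lower threshold gave 18 higher and 4 lower. Spearman's rho of the length trend, 0.146, was 0.224 with at least 50 reads, 0.228 with protein-coding genes alone and 0.317 with at least 400 reads; for these changes the cause was not tested. For single genes, 78 recomputed values lay outside the main interval and 575 within it. Of the 78, 29 came with length and GC trends, 20 with length, 23 with span and 6 with 1 added to the FPKM. No enzyme or partner past 1.5-fold changed sign under these alternatives, while NSD2, NSD3, KDM2A, KDM2B, KDM3A, KMT5A, CARM1 and EZH1 did under a subtracted trend. KDM7A was 1.62 with 1 added to the FPKM. With merged exon lengths, an alternative added after seeing the data, EZH2 over EZH1 was 1.47 in Vector in place of 3.24. Depth limits KDM8 and RCOR2, whose intervals hold 0.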
